A study of Mus musculus with 12 samples.

Results

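The serum amyloid A genes Saa1, Saa2, Saa3 and Saa4, the orosomucoid genes Orm1 and Orm2, and Lcn2, Hp, Apcs and Crp were followed over 1 day in mouse liver. These 10 genes were taken by symbol from a count table of 22618 genes. They were picked by name, as classical acute-phase genes, and all 10 were among the 17142 genes that passed the filter on low counts. All mice were Cry1/2 DKO males of the C57BL/6j strain, aged 12 to 16 weeks, raised conventionally with regard to gut flora and fed at night. DKO stands for double knockout, here of the cryptochrome genes. Total liver RNA was sequenced at zeitgeber times ZT02, ZT06, ZT10, ZT14, ZT18 and ZT22, with 2 libraries at each time. Zeitgeber time counts hours of the light cycle. By convention the dark phase starts at ZT12, so ZT14, ZT18 and ZT22 were taken as night, and ZT02, ZT06 and ZT10 as day. The labels do not give the light schedule. No wild-type library was used here, and the comparisons below set times of day against each other in this 1 genotype.

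The acute-phase response is the change in plasma proteins that the liver makes within hours of infection or injury. Cytokines such as IL-6 and IL-1 reach hepatocytes and act through STAT3, NF-kB and C/EBP factors on the promoters of these genes. Serum amyloid A rides on high-density lipoprotein, orosomucoid binds drugs and lipids, lipocalin 2 captures bacterial siderophores, haptoglobin binds free hemoglobin, and the pentraxins serum amyloid P and C-reactive protein bind microbes and cell debris. In mice, serum amyloid A and serum amyloid P are strong responders, and C-reactive protein, the standard clinical marker in humans, responds weakly.

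Levels are CPM, counts scaled to a common library total, after TMM scaling, a correction for library composition. Library totals ran from 34715506 to 46074052 counts, and a count of 0 allows up to 0.0651 to 0.0864 CPM in the different libraries, for counting error only. No member was at 0 in any library, and the lowest count was 49, for Lcn2 in ZT14 replicate 2. Reads of the targeted genes remained, at 5.71 to 13.6 CPM for Cry1 and 12.4 to 22.8 CPM for Cry2, and since the deleted parts are not given here these levels check nothing. Hepatocyte markers summed to 77034.9 and 82923.4 CPM in the ZT22 libraries, against 73648.3 to 107715 CPM in the 10 others. ZT22 replicate 1 stood apart in several markers of other cells (Ltf, Acta2 and Krt19 among them), whose values are given with the members below. Whether the libraries stem from different animals is not stated in the labels, and the p-values therefore speak only of the spread between libraries. Adjusted p-values are from edgeR's quasi-likelihood test, adjusted by Benjamini and Hochberg over all 17142 genes, and a gene was called at an adjusted p under 0.05. In whole liver, fewer cells of a type and less RNA per cell cannot be told apart.

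Of the 10 genes, 6 were called in the test of a 24 h rhythm, namely Saa1, Saa2, Saa4, Orm1, Orm2 and Apcs. Across all genes 12.0% were called in that test. The test of any time difference, which assumes no shape, called the same 6 genes and Lcn2, making 7 of 10, where 4.82% of all genes were called. For night minus day, 4 members were called (Saa1, Saa2, Saa4 and Orm1), all of them higher at night, against 9.70% of all genes called and 4.80% called as higher. None was called as lower at night in edgeR, and none was lower at an unadjusted p under 0.05. For ZT22 minus ZT10, 3 members were higher (Saa1, Saa2 and Orm1), against 0.233% of all genes called and 0.140% called as higher. The median log2 difference of the 10 genes was 0.59 for night minus day and 1.47 for ZT22 minus ZT10, beside 0.01 and 0.00 over all genes tested.

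These calls went with the ZT22 libraries. In 6 of 10 members (Saa1, Saa2, Saa4, Orm1, Orm2 and Apcs) both ZT22 libraries stood above all 10 others, which was so for 1.17% of all genes tested. In 0 of 10 members did all 6 night libraries stand above all 6 day libraries, which was so for 1.60% of all genes. Without both ZT22 libraries the 24 h test called 2 of the members, Saa4 and Apcs, in place of 6, and 6.25% of all genes in place of 12.0%. Without ZT22 replicate 1 alone, 4 members were called for 24 h (Saa1, Saa2, Saa4 and Orm1; 8.90% of all genes), 5 for any time (2.11%), 3 for night minus day (4.68%) and 2 for ZT22 minus ZT10 (Saa1 and Apcs; 0.0292%). The test of any time called Saa1 and Saa2 alone when either library of ZT14 or of ZT18 was left out, in fits that called 1.04% to 3.30% of all genes in place of 4.82%, and those and Apcs without ZT22 replicate 2 (2.51% of all genes). In fits without 1 library the share of all genes called ran from 7.17% to 13.1% for 24 h, 3.77% to 10.9% for night minus day and 0.0175% to 0.420% for ZT22 minus ZT10. ZT14, although a night time, was among the low times for most members.

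**Figure D1:**
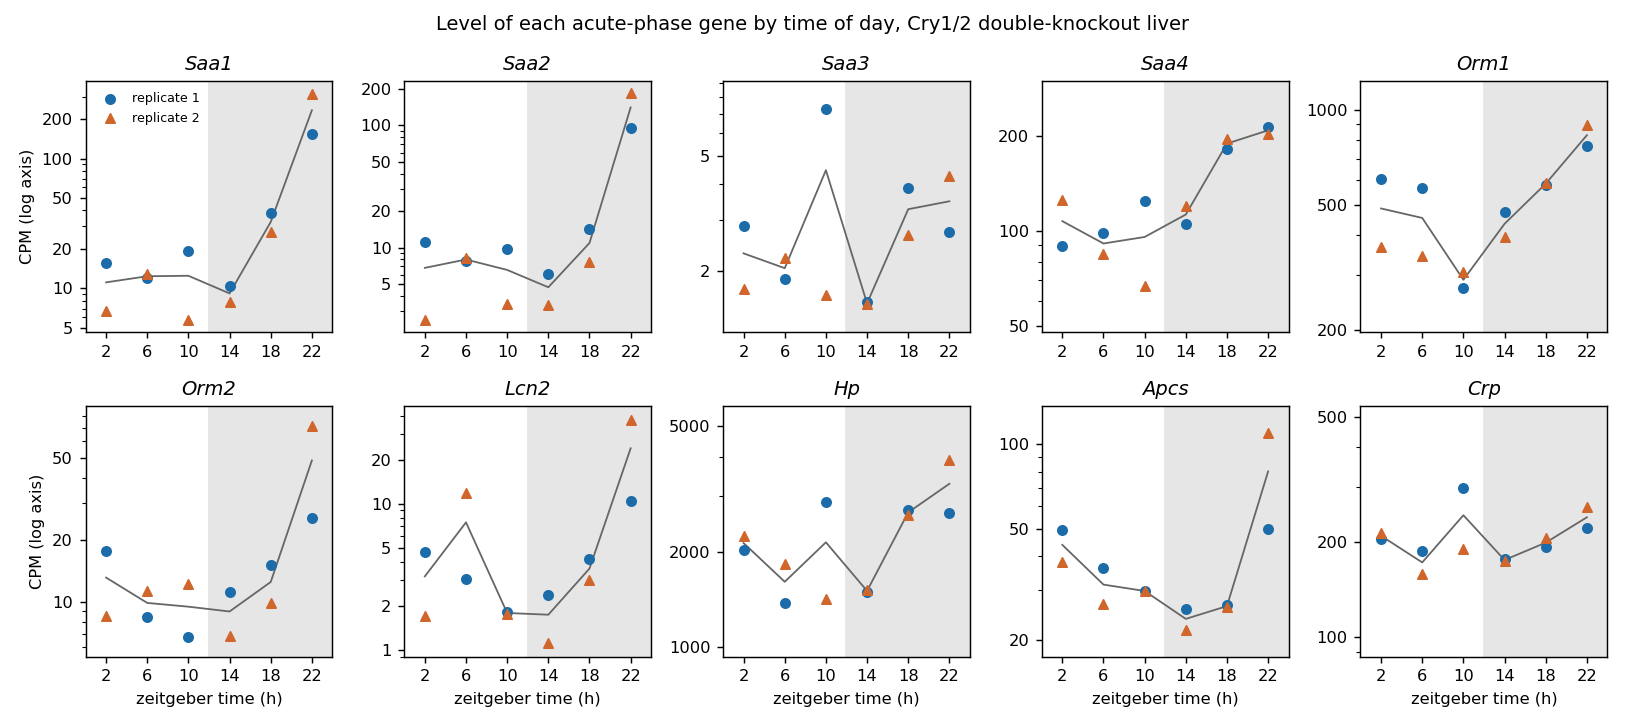
Level of each of the 10 genes in CPM, on a log axis, against zeitgeber time in hours; circles are replicate 1, triangles replicate 2, the line joins the means of the 2 libraries and the shaded side is night. Saa1 reached 155 and 316 CPM at ZT22, where Saa2, Orm2, Lcn2 and Apcs also had their highest library, while Saa3 and Crp had theirs in ZT10 replicate 1.

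Saa1 and Saa2, which encode the acute-phase serum amyloid A proteins of high-density lipoprotein, had the widest daily range of the 10 genes. They are neighbours on chromosome 7, in opposite directions. On GRCm38, Saa1 lies at chr7:46740497-46742980 on the minus strand and Saa2 at chr7:46751790-46754313 on the plus strand, with starts 8.81 kb apart. Together with Saa3 and Saa4 they fill a cluster of 42.3 kb. Their coding sequences, both of 366 bases, differ at 18 bases, an identity of 95.1%, so the split of reads between them rests on few positions. Coding bases 61 to 150, which hold 11 of the differences, are shown in sense orientation from the GENCODE gene models on GRCm38, with the differing bases in capitals.
Saa1: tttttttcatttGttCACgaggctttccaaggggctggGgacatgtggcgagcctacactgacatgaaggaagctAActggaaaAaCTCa
Saa2: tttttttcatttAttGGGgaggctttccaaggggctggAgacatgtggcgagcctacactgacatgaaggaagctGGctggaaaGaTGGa
Of the 510 stretches of 100 bases in the Saa1 transcript, the length of 1 read, 0 occurred in the Saa2 transcript, and the longest shared run was 99 bases. How reads that fit both genes were counted is not given in the sources used here.

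Saa1 stood at 15.6 and 6.69 CPM at ZT02, 12.0 and 12.9 CPM at ZT06, 19.3 and 5.76 CPM at ZT10, 10.4 and 7.93 CPM at ZT14, 38.0 and 27.0 CPM at ZT18, and 155 and 316 CPM at ZT22. Both ZT18 libraries were above every library from ZT02 to ZT14, and both ZT22 libraries were far above those of ZT18. Saa1 averaged 92.3 ± 122 CPM at night and 12.0 ± 5.17 CPM by day (SD, n = 6 each), and the night and day libraries overlapped because those at ZT14 were low. Night minus day came to a log2 difference of 1.78 ± 0.31 (SE, adjusted p = 0.0077). The ZT22 mean was 18.8 times the ZT10 mean, and the fitted log2 difference was 4.23 ± 0.57 (adjusted p = 0.034). The fitted 24 h curve of Saa1 peaked at ZT21.2 ± 1.21 (SE, in h), with a ratio of peak to trough of 11.3 and a wide 95% interval, from 2.00 to 64.1 (adjusted p = 0.017).

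Saa2 followed Saa1 at a lower level. It stood at 11.1 and 2.53 CPM at ZT02, 7.69 and 8.26 CPM at ZT06, 9.68 and 3.43 CPM at ZT10, 6.04 and 3.41 CPM at ZT14, 14.2 and 7.59 CPM at ZT18, and 95.8 and 185 CPM at ZT22. Unlike Saa1, its ZT18 libraries were not both above the day libraries. Night libraries averaged 52.0 ± 74.1 CPM and day libraries 7.12 ± 3.42 CPM (SD, n = 6 each), a log2 difference of 1.44 ± 0.37 (adjusted p = 0.034). For ZT22 minus ZT10 the log2 difference was 4.42 ± 0.68 (adjusted p = 0.035), and the 24 h peak was at ZT21.9 ± 1.53 with a ratio of peak to trough of 9.27 (95% interval 1.23 to 69.7, adjusted p = 0.023). With Saa1 and Saa2 counts summed to 1 row, the sum was called in all 4 tests, with an adjusted p of 0.019 for 24 h and 0.035 for ZT22 minus ZT10.

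The balance between the 2 genes moved less than their level. At ZT22 there were 0.620 and 0.585 Saa2 counts per Saa1 count, against 0.281 to 0.711 in the 10 other libraries. The lowest ratios, 0.373 and 0.281, were those of ZT18, where Saa1 already stood above its day range.

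**Figure D2:**
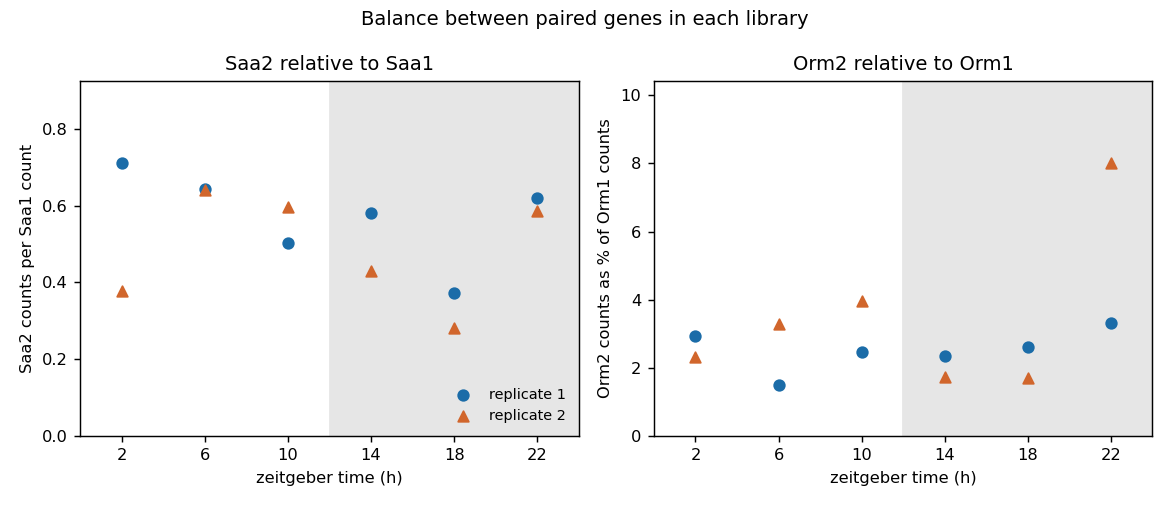
Saa2 counts per Saa1 count (left) and Orm2 counts as a percentage of Orm1 counts (right) in each library, against zeitgeber time in hours; circles are replicate 1, triangles replicate 2 and the shaded side is night. The Saa2 ratio was lowest at ZT18 (0.373 and 0.281), and Orm2 reached 8.02% of Orm1 in ZT22 replicate 2, against at most 3.97% in the libraries of other times.

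The calls of Saa1 and Saa2 rested on ZT22. Without both ZT22 libraries the 24 h test gave adjusted p-values of 0.225 for Saa1 and 0.724 for Saa2, and night minus day gave 0.337 and 0.988. The 24 h and night calls of Saa1 held in each of the 12 fits that left out 1 library, whereas leaving out ZT10 replicate 2 (0.0521) or ZT22 replicate 2 (0.0637) ended the 24 h call of Saa2. The night call of Saa2 was lost in 8 of those fits (adjusted p up to 0.108) and held without replicate 1 of ZT02, ZT10 or ZT22 and without replicate 2 of ZT14. For ZT22 minus ZT10, Saa1 was lost without ZT10 replicate 2 (log2 difference 3.61, adjusted p = 0.050) and without either library of ZT18 (adjusted p = 0.073 in each), which takes no part in the contrast and left the difference at 4.23. Saa2 was lost without any 1 library of ZT10, ZT18 or ZT22 (up to 0.102). Both genes were called for any time in each of the 12 fits.

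Saa4, the constitutive serum amyloid A of the liver, had a smaller and steadier daily change. Its gene lies at chr7:46727998-46732603 on the minus strand. Saa4 stood at 89.8 and 125 CPM at ZT02, 98.3 and 84.3 CPM at ZT06, 125 and 66.9 CPM at ZT10, 105 and 120 CPM at ZT14, 182 and 196 CPM at ZT18, and 213 and 204 CPM at ZT22. The 4 libraries of ZT18 and ZT22 were all above the 8 of the other times. Night libraries averaged 170 ± 45.8 CPM and day libraries 98.2 ± 23.1 CPM (SD, n = 6 each), a log2 difference of 0.75 ± 0.14 (adjusted p = 0.011). The curve peaked at ZT20.0 ± 0.73, with a ratio of peak to trough of 2.46 (95% interval 1.66 to 3.63) and an adjusted p of 0.0075. This was the only 24 h call among the members that held in all 23 alternative fits, including the one without both ZT22 libraries (adjusted p at most 0.046). ZT22 minus ZT10 gave 1.12 ± 0.25 on the log2 scale and was not called (adjusted p = 0.075). That contrast was called for Saa4 without ZT10 replicate 1 (0.035) and by DESeq2 (0.000339).

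Saa3, a serum amyloid A that mouse macrophages and fat cells also make, lacked the high ZT22 level of its neighbours. Its gene lies at chr7:46711998-46715700 on the minus strand. Saa3 stood at 2.87 and 1.74 CPM at ZT02, 1.87 and 2.22 CPM at ZT06, 7.30 and 1.66 CPM at ZT10, 1.56 and 1.54 CPM at ZT14, 3.89 and 2.67 CPM at ZT18, and 2.72 and 4.26 CPM at ZT22. Its highest library was ZT10 replicate 1, at 4.404 times the other ZT10 library. Saa3 was not called in the 24 h test (adjusted p = 0.978), for any time (0.338), for night minus day (log2 difference -0.09 ± 0.31, 0.894) or for ZT22 minus ZT10 (-0.35 ± 0.52, 0.757). Without ZT10 replicate 1 the 24 h test called Saa3 (adjusted p = 0.046), whereas any time (0.161), night minus day (0.39, 0.250) and ZT22 minus ZT10 (1.07, 0.274) stayed uncalled. Without ZT10 replicate 2 it was called for any time (0.034). Macrophage and fat cell markers summed to 319 CPM and 0.1003 CPM in ZT10 replicate 1, beside 322 CPM and 0.117 CPM in ZT10 replicate 2. Il1b, which encodes the macrophage cytokine IL-1 beta and was named after its values were seen, was highest in ZT10 replicate 1, at 5.64 CPM. It stood at 1.28 CPM in ZT10 replicate 2 and at most 2.76 CPM in any other library. The part of these cells or of IL-1 in the Saa3 value was not tested.

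Orm1 and Orm2, which encode the orosomucoids or alpha-1-acid glycoproteins, were both highest at ZT22 from very different levels. They lie within 21.3 kb on chromosome 4, Orm1 at chr4:63344560-63348163 and Orm2 at chr4:63362449-63365878, both on the plus strand of GRCm38. Their coding sequences of 621 bases differ at 63 bases, an identity of 89.9%. Coding bases 139 to 228, with 20 differences in capitals, are shown in sense orientation because they tell the 2 genes apart.
Orm1: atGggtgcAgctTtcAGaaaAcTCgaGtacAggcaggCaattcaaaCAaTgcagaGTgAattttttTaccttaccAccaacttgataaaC
Orm2: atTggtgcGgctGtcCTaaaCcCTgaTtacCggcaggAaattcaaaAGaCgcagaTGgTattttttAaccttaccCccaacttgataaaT
Some single reads fit both genes, since 47 of the 676 stretches of 100 bases in Orm1 (6.95%) also occur in Orm2. The longest shared run was 141 bases. Reads came in pairs, so a mate outside such a run could still tell the genes apart.

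Orm1 stood at 605 and 368 CPM at ZT02, 565 and 343 CPM at ZT06, 272 and 306 CPM at ZT10, 476 and 395 CPM at ZT14, 579 and 588 CPM at ZT18, and 768 and 894 CPM at ZT22. The low point was at ZT10, and replicate 1 of ZT02 and of ZT06 was near the level of ZT18. Night libraries averaged 616 ± 185 CPM and day libraries 410 ± 140 CPM (SD, n = 6 each), a log2 difference of 0.57 ± 0.15 (adjusted p = 0.034). ZT22 minus ZT10 was 1.52 ± 0.26 (adjusted p = 0.047), and the curve peaked at ZT21.5 ± 0.85 with a ratio of peak to trough of 2.30 (95% interval 1.51 to 3.50, adjusted p = 0.015). The 24 h call held without any 1 library. The night call was lost in 9 of the 12 such fits (adjusted p up to 0.097) and held without ZT02 replicate 1, ZT06 replicate 1 or ZT14 replicate 2. The ZT22 minus ZT10 call was lost in 8 of 12 (up to 0.149) and held without any 1 library of ZT02 or ZT06.

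Orm2 stood at 17.7 and 8.51 CPM at ZT02, 8.44 and 11.3 CPM at ZT06, 6.74 and 12.2 CPM at ZT10, 11.1 and 6.81 CPM at ZT14, 15.02 and 9.90 CPM at ZT18, and 25.4 and 71.6 CPM at ZT22. The ZT22 libraries were the highest but differed from each other by 2.82 times. Orm2 was called in the 24 h test (adjusted p = 0.035, ratio of peak to trough 3.39, 95% interval 1.27 to 9.06, peak ZT22.2 ± 1.36) and for any time (0.035). It was not called for night minus day, with 23.3 ± 24.5 CPM at night and 10.8 ± 3.91 CPM by day (SD, n = 6 each; log2 difference 0.71 ± 0.29, adjusted p = 0.139), nor for ZT22 minus ZT10 (2.36 ± 0.50, 0.074). The 24 h call of Orm2 was lost in 8 of 12 fits without 1 library, most of all without ZT22 replicate 2 (0.112), and held without replicate 2 of ZT02, ZT10 or ZT18 and without replicate 1 of ZT06. Orm2 made 3.31% and 8.02% of the Orm1 count at ZT22, against 1.49% to 3.97% in the other libraries.

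**Figure D3:**
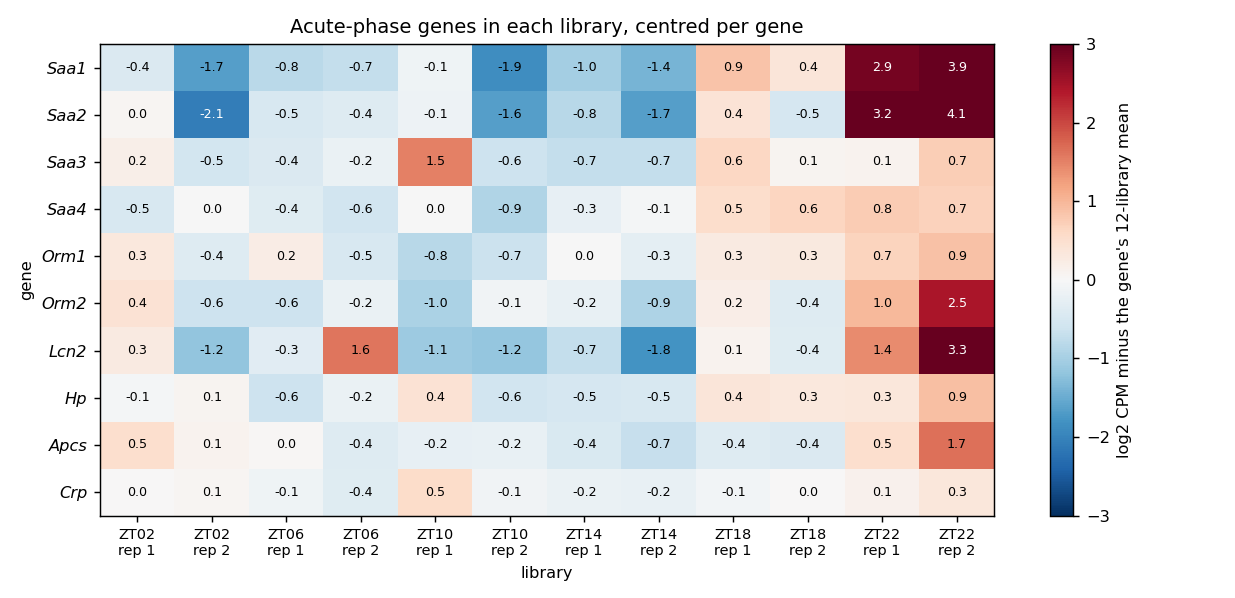
Log2 CPM of each gene (rows) in each of the 12 libraries (columns), minus that gene's mean over the 12; red is above and blue below the mean, and the number in each cell is the value. ZT22 replicate 2 was the highest library for 7 of the 10 genes and stood at 3.9 for Saa1 and 4.1 for Saa2, while Crp stayed between -0.4 and 0.5.

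Lcn2 encodes lipocalin 2, which starves bacteria of iron and is made both by stimulated hepatocytes and by neutrophils. Its gene lies at chr2:32384633-32388252 on the minus strand. Lcn2 stood at 4.66 and 1.71 CPM at ZT02, 3.07 and 11.8 CPM at ZT06, 1.83 and 1.75 CPM at ZT10, 2.36 and 1.12 CPM at ZT14, 4.20 and 3.00 CPM at ZT18, and 10.4 and 37.4 CPM at ZT22. ZT22 replicate 2 was the highest library, and ZT06 replicate 2 was above ZT22 replicate 1. Lcn2 was called in the test of any time (adjusted p = 0.032) but not for 24 h (0.051), for night minus day (9.75 ± 13.9 CPM at night, 4.14 ± 3.94 CPM by day, SD, n = 6 each; log2 difference 0.60 ± 0.42, adjusted p = 0.397) or for ZT22 minus ZT10 (3.74 ± 0.76, 0.066). The 24 h test called Lcn2 without ZT06 replicate 2 (0.029) and without either library of ZT02 (0.044 and 0.022). ZT22 minus ZT10 called it without either library of ZT06, which takes no part in the contrast and left the log2 difference at 3.74. The call for any time was lost without ZT22 replicate 2 (0.134), ZT10 replicate 1 (0.054) or any 1 library of ZT14 or ZT18 (up to 0.080).

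Neutrophil markers moved in part with Lcn2. The 10 markers summed to 13.5 and 3.48 CPM in ZT22 replicates 1 and 2, against 1.29 to 2.73 CPM in the 10 other libraries. Ltf, which encodes lactoferrin and is also made by gland epithelium, accounted for 9.84 CPM of the first sum. Without Ltf the other 9 markers summed to 3.61 and 3.38 CPM at ZT22, against 1.29 to 2.50 CPM elsewhere, and S100a9 stood at 1.89 and 1.43 CPM at ZT22, against 0.560 to 0.984 CPM. The neutrophil markers Mpo, Elane, Camp, Ngp and Ly6g were at 0 in some libraries and at most 0.197 CPM in any. Between the ZT22 libraries, Lcn2 was 3.61 times higher in replicate 2 than in replicate 1. Of the markers, S100a8 (0.838 and 1.14 CPM in ZT22 replicates 1 and 2), Elane (0 and 0.130 CPM) and Ngp (0.0262 and 0.130 CPM) were higher in replicate 2. So were Retnlg (0.157 and 0.182 CPM) and Mpo (0 and 0.0260 CPM). S100a9, Cxcr2 (0.655 and 0.338 CPM), Ltf, Ly6g and Camp (0.0262 and 0 CPM for each of the last) were lower there. The part of neutrophils in the Lcn2 values was not tested.

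**Figure D4:**
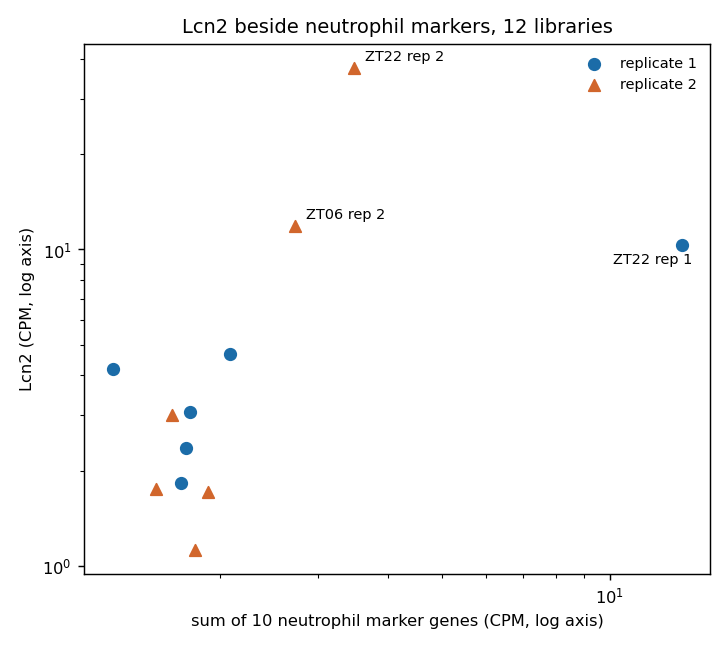
Lcn2 level in each of the 12 libraries against the sum of 10 neutrophil marker genes, both in CPM on log axes; circles are replicate 1 and triangles replicate 2. ZT22 replicate 2 had the highest Lcn2 (37.4 CPM) at a marker sum of 3.48 CPM, and ZT22 replicate 1 had the highest sum (13.5 CPM) at 10.4 CPM of Lcn2.

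Hp encodes haptoglobin, the plasma protein that binds free hemoglobin, and was the most abundant member. Its gene lies at chr8:109575128-109579172 on the minus strand. Hp stood at 2028 and 2242 CPM at ZT02, 1381 and 1838 CPM at ZT06, 2872 and 1422 CPM at ZT10, 1495 and 1516 CPM at ZT14, 2715 and 2626 CPM at ZT18, and 2659 and 3923 CPM at ZT22. The 4 libraries of ZT18 and ZT22 were high, as was ZT10 replicate 1. Hp was not called in the 24 h test (adjusted p = 0.134, ratio of peak to trough 1.84, 95% interval 1.11 to 3.05), for night minus day (2489 ± 904 CPM at night, 1964 ± 558 CPM by day, SD, n = 6 each; log2 difference 0.28 ± 0.17, 0.311) or for ZT22 minus ZT10 (0.62 ± 0.29, 0.282). Without ZT10 replicate 1 the 24 h test (adjusted p = 0.0043) and night minus day (0.040) called it, whereas ZT22 minus ZT10 (1.21, 0.097) stayed uncalled. For any time Hp was not called (0.128), and it was called without either library of ZT10 (0.030 and 0.033).

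The pentraxin genes Apcs and Crp lie within 197 kb on chromosome 1, Apcs at chr1:172893961-172895041 on the minus strand and Crp at chr1:172698055-172833031 on the plus strand. Apcs, which encodes serum amyloid P, stood at 49.5 and 37.9 CPM at ZT02, 36.03 and 26.9 CPM at ZT06, 29.8 and 30.0 CPM at ZT10, 25.8 and 21.7 CPM at ZT14, 26.6 and 26.1 CPM at ZT18, and 49.98 and 110 CPM at ZT22. Unlike the Saa genes it was low at ZT18, and its level at ZT02 was above that from ZT10 to ZT18. The 24 h curve peaked at ZT0.04 ± 1.20 with a ratio of peak to trough of 2.396 (95% interval 1.29 to 4.46, adjusted p = 0.037), and Apcs was called for any time (0.025). Night minus day was near 0, at 0.09 ± 0.17 on the log2 scale (43.4 ± 34.2 CPM at night, 35.02 ± 8.22 CPM by day, SD, n = 6 each; adjusted p = 0.761). Without both ZT22 libraries it became -0.46 (adjusted p = 0.033), so that the other night times alone were lower than day. ZT22 minus ZT10 was 1.42 ± 0.30 and was not called (0.069), except without ZT22 replicate 1 (0.017) and by DESeq2 (5.58e-05). The 24 h call was lost in 5 of 12 fits without 1 library, namely without either library of ZT14, replicate 1 of ZT02 or ZT22, or replicate 2 of ZT10, with adjusted p-values up to 0.078.

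Crp, which encodes C-reactive protein, stood at 205 and 214 CPM at ZT02, 187 and 158 CPM at ZT06, 297 and 190 CPM at ZT10, 177 and 174 CPM at ZT14, 193 and 206 CPM at ZT18, and 222 and 258 CPM at ZT22. Night libraries averaged 205 ± 31.6 CPM and day libraries 209 ± 47.3 CPM (SD, n = 6 each). Crp was called in none of the 4 tests (24 h adjusted p = 0.880, any time 0.250), and its log2 difference was -0.02 ± 0.10 for night minus day and -0.02 ± 0.18 for ZT22 minus ZT10. Its highest library was again ZT10 replicate 1, and without ZT10 replicate 2 it was called for any time (0.045). A processed pseudogene, Gm38051, overlaps Crp on the same strand.

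**Figure D5:**
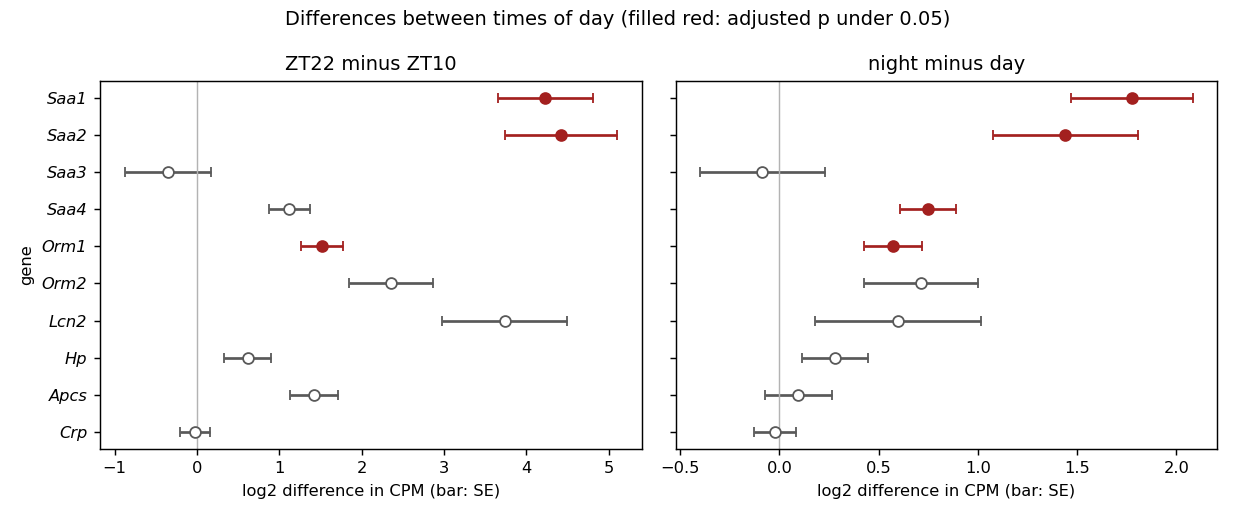
Log2 difference of each gene for ZT22 minus ZT10 (left) and night minus day (right), with bars of 1 SE; filled red points have an adjusted p under 0.05. Saa1 and Saa2 had the largest differences in both panels (4.23 and 4.42 on the left, 1.78 and 1.44 on the right), and Crp was near 0 in both.

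Between genes, levels were compared per kilobase of the protein-coding transcript numbered 201 in GENCODE, which was not shown to be the main one. This transcript has 609 bases in Saa1 and 1695 in Crp, where all annotated exons cover 2478 and 3444 bases. In Saa4 both lengths are 2094 bases. The places of Crp, Saa1, Saa2 and Saa4 relative to other members therefore depend on the length chosen. Mean levels over the 12 libraries were 1655 ± 570 CPM per kb for Hp, 662 ± 245 for Orm1, 122 ± 22.7 for Crp, 85.6 ± 152 for Saa1, 64.1 ± 24.4 for Saa4, 48.8 ± 91.1 for Saa2, 40.4 ± 24.9 for Apcs, 22.0 ± 23.2 for Orm2, 7.59 ± 11.1 for Lcn2 and 5.15 ± 2.99 for Saa3 (SD, n = 12). Hp was above Orm1, Orm1 above Crp, Apcs above Orm2 and Orm2 above Lcn2 in all 12 libraries. The place of Saa1 and Saa2 in this order came from ZT22. Saa1 was above Saa4 in 2 of 12 libraries and Saa2 above Apcs in 2 of 12, and the median of Saa1 was 23.4 CPM per kb. Lcn2 was above Saa3 in 3 of 12 libraries. At ZT22 Saa1 averaged 386 CPM per kb, above Crp in both libraries.

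Outside ZT22 some members still varied together from library to library. Over the 10 other libraries, which come as pairs from 5 times and so are not fully independent, log2 CPM of Saa1 was correlated with that of each of the 9 other members. For Saa2, Pearson's r was 0.87 (permutation p = 0.00136, adjusted over 9 relations 0.012) and Spearman's rho 0.83 (permutation p = 0.0047, adjusted 0.021). For Saa3, r was 0.71 (permutation p = 0.0187, adjusted 0.0503) and rho 0.84 (permutation p = 0.00366, adjusted 0.021). Without the 2 libraries farthest from the median of Saa1, both of ZT18, r was 0.94 for Saa2 and 0.78 for Saa3. For Hp, r was 0.72 (permutation p = 0.0206, adjusted 0.0503) and rho 0.68 (permutation p = 0.0354, adjusted 0.106), and for Saa4 r was 0.70 (permutation p = 0.0223, adjusted 0.0503) and rho 0.50 (permutation p = 0.143, adjusted 0.258). Without the ZT18 libraries r was 0.52 for Hp and 0.22 for Saa4. The relation of Saa4 rested on the ZT18 libraries, and for Hp the drop was not tested. The 5 remaining members had r between -0.09 (Apcs) and 0.50 (Orm1), with adjusted permutation p-values of 0.255 to 0.808.

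By Pearson's r of log2 CPM over the 12 libraries, among 9133 genes averaging 5 CPM or more, the genes most like Saa1 were Itga7 (0.91), Serpina10 (0.90), Ifi47 (0.88), Olfr56 (0.88), Itih4 (0.88), Ambp (0.87), Adar (0.84) and Slc41a2 (0.84). Serpina10, Itih4 and Ambp encode plasma proteins made by the liver. Olfr56 had nearly the same values as Ifi47 in the libraries (24.2 and 37.6 CPM at ZT22, beside 24.1 and 37.0 CPM for Ifi47), so the 2 may share reads and are uncertain. The likeness concerns shape, since Itga7 ran from 5.30 to 8.38 CPM in all. Without the ZT22 libraries r was 0.53 for Itih4, 0.67 for Ambp and 0.72 for Serpina10. For Itga7, Ifi47, Olfr56, Adar and Slc41a2 it was 0.81 to 0.85. The 5 genes most like Hp were Hpx (0.92), Vtn (0.89), Slc41a2 (0.88), Ang (0.88) and Dio1 (0.88). Hpx encodes hemopexin, which binds free heme as haptoglobin binds hemoglobin, and stood at 3784 and 5329 CPM at ZT22, against 2417 to 3792 CPM elsewhere.

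Promoters of the members were read from RefSeq on GRCm38.p6, 250 bases before to 50 after the start, which gave 8 of the 10 genes. Hp and Orm1 were not matched. The Saa1 and Saa2 promoters are shown because the genes moved together, and that of Saa3 because it was not called. Saa1 is at chr7:46742931-46743230 on the minus strand, Saa2 at chr7:46751583-46751882 on the plus strand and Saa3 at chr7:46715627-46715926 on the minus strand. Apcs, at chr1:172895005-172895304 on the minus strand, is shown because 2 of the 4 motifs below were found in no other member. Each is written 5′ to 3′ in the direction of its gene, with matches to the 4 motifs below in capitals.
Saa1: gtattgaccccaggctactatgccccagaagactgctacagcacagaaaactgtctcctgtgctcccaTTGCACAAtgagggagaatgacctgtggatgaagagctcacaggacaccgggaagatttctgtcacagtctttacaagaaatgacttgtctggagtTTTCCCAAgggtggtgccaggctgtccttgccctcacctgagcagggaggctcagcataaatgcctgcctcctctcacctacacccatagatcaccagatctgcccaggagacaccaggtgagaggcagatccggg
Saa2: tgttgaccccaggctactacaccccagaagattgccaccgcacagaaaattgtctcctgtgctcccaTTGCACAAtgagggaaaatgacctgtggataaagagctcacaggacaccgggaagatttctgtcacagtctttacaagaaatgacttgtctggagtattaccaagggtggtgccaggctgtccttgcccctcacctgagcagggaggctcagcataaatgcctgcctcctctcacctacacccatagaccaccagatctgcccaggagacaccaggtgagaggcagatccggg
Saa3: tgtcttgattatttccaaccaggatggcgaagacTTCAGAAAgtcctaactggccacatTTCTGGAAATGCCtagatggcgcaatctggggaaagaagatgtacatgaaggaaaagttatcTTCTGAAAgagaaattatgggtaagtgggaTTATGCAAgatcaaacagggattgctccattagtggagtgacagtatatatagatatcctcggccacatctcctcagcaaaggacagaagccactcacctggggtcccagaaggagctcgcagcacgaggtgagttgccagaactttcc
Apcs: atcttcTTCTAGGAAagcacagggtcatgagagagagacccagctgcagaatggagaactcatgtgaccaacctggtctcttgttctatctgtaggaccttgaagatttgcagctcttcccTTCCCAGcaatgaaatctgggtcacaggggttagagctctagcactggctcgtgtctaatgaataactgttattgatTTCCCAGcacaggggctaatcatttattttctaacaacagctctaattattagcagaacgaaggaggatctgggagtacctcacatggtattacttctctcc
The Saa1 and Saa2 promoters were 95.3% identical, with 12 mismatches and 2 gap bases, whereas Saa1 was 50.9% identical to Saa3 and 46.8% to Saa4. Motifs were searched on both strands, and a match describes letters, not binding. The C/EBP letters TTNNGNAA, held by 40.7% of all 32544 promoters in the table, occurred 2 times in Saa1 (at -182 and -86 from the start), 1 time in Saa2 (at -183), 4 times in Saa3, 2 times in Saa4, 3 times in Orm2, of which 2 are the same palindrome read on both strands, and 1 time each in Lcn2 and Crp, and were not found in Apcs. The NF-kB letters GGNNTTTCC, held by 5.83% of promoters, were found in Saa3 alone of the 8 genes, where they overlap a C/EBP match. Other forms of the NF-kB site were not searched, so the other promoters, that of Saa1 among them, may hold sites that differ from these letters. The STAT letters TTCNNNGAA (8.33% of promoters) and the IL-6 type II letters CTGGGAA (11% of promoters) were found in Apcs alone. The STAT letters stand at 1 place, -244, where both strands match since the pattern reads the same on each, and the others at -129 and -52.

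Among other positive acute-phase proteins, 30 of 32 listed genes were tested, and 5 were called in the 24 h test, where 12.0% of all genes were called. For night minus day 2 were called as higher and 2 as lower, where 9.70% of all genes were called. The median log2 difference was 0.10, against 0.01 over all genes. For ZT22 minus ZT10 the median was 0.25, and 1 gene, Lrg1, was called, where 0.233% of all genes were called. Lrg1, which encodes the secreted leucine-rich alpha-2-glycoprotein, had the shape of Saa4 with a wider range. It averaged 240 ± 96.5 CPM at night and 115 ± 28.1 CPM by day (SD, n = 6 each; log2 difference 1.003 ± 0.112, adjusted p = 0.0015), and reached 284 and 401 CPM at ZT22, against 84.3 and 93.3 CPM at ZT10 (log2 difference 1.95 ± 0.20, adjusted p = 0.017). Its curve peaked at ZT20.6 ± 0.52 with a ratio of peak to trough of 3.32 (95% interval 2.29 to 4.81). C4b, a complement component, had a 24 h ratio of 1.41 and peaked at ZT22.4 (adjusted p = 0.029). Mbl2, a mannose-binding lectin, fell to 218 ± 33.7 CPM at night, against 301 ± 29.0 CPM by day (SD, n = 6 each; log2 difference -0.47 ± 0.08, adjusted p = 0.0088). Il1rn, which encodes the IL-1 receptor antagonist, was also lower at night, at 0.702 ± 0.410 CPM, against 1.53 ± 0.580 CPM by day (adjusted p = 0.024). Steap4, a metalloreductase gene named after its values were seen, was the other gene higher at night, at 161 ± 23.0 CPM, against 116 ± 22.7 CPM by day (adjusted p = 0.0060).

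The fibrinogen genes Fga, Fgb and Fgg, whose products form clots, had log2 differences of 0.38 ± 0.15, 0.43 ± 0.16 and 0.43 ± 0.15 for ZT22 minus ZT10 (adjusted p = 0.214, 0.191 and 0.163). Fgl1, a liver-secreted relative of fibrinogen, gave 1.08 ± 0.31 (0.119) and Serpina3n, a protease inhibitor, 0.88 ± 0.21 (0.088). Of the 30 genes tested from the list, 18 had their highest library in ZT22 replicate 2, beside 5.95% of all 16776 tested symbols. For ZT22 minus ZT10, 24 of the list had a positive difference, where the median over all genes tested was 0.00. Hamp, which encodes the iron hormone hepcidin and is a target of IL-6, had the largest difference of the list, with the opposite sign. It stood at 42.2 and 114 CPM at ZT22, against 447 and 201 CPM at ZT10 (-2.05 ± 0.70, adjusted p = 0.163). Orm3, the third orosomucoid gene, was at 0.276 to 3.18 CPM and was not called (24 h adjusted p = 0.650). These genes were chosen after their values were seen. Serpina1 and Serpina3 family members are near-identical copies, and their values are uncertain.

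Of 12 negative acute-phase proteins, plasma proteins that fall in inflammation, 1 was called in the 24 h test, against 12.0% of all genes. Serpina6, which encodes the corticosteroid-binding globulin, fell to 139 ± 26.8 CPM at night, against 244 ± 37.1 CPM by day (SD, n = 6 each; log2 difference -0.83 ± 0.12, adjusted p = 0.0044). The median of the 12 genes was -0.11 for night minus day and -0.04 for ZT22 minus ZT10.

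In the IL-6 and STAT3 path, 13 of 14 genes were tested, and Il6 itself was below the filter. In the 24 h test 2 genes of the path were called, against 12.0% of all genes. Bcl3, a partner of NF-kB proteins, averaged 22.6 ± 6.16 CPM at night and 13.1 ± 3.57 CPM by day (SD, n = 6 each; log2 difference 0.80 ± 0.13, adjusted p = 0.0058), with its peak at ZT16.0, before that of the Saa genes. Pim1, a kinase gene induced by STAT factors, was higher at ZT22, with 19.4 and 15.6 CPM, against 8.78 and 9.57 CPM at ZT10 (log2 difference 0.93 ± 0.16, adjusted p = 0.048), and peaked at ZT0.8. Il6ra and Jak2, which encode the IL-6 receptor and its kinase, were the genes lower at night, with 30.4 ± 5.43 and 26.5 ± 2.14 CPM at night, against 42.1 ± 2.97 and 30.8 ± 0.878 CPM by day (SD, n = 6 each; adjusted p = 0.0037 and 0.046). Stat3 stood at 134 and 162 CPM at ZT22, against 82.7 to 153 CPM elsewhere, and its feedback inhibitor Socs3 at 18.1 and 10.3 CPM, against 4.02 to 18.6 CPM elsewhere. Neither was called, and the ZT22 libraries overlapped those of other times. Il6ra, Jak2, Stat3 and Socs3 were named after their values were seen.

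Of 28 genes in the C/EBP and NF-kB path, 1 was called in the 24 h test, against 12.0% of all genes. The median of the list was 0.01 for night minus day. Hnf4a, a nuclear receptor that maintains hepatocyte genes, was lower at ZT22, with 516 and 546 CPM, against 933 and 907 CPM at ZT10 (log2 difference -0.79 ± 0.12, adjusted p = 0.034). Its curve peaked at ZT11.8 with a ratio of peak to trough of 1.61. Nfkbia, the NF-kB inhibitor that NF-kB itself induces, was lower at night, at 25.7 ± 3.67 CPM, against 32.9 ± 3.59 CPM by day (SD, n = 6 each; adjusted p = 0.027), and was named after its values were seen. Among 12 receptors and partners of the members, 2 were called for 24 h, against 12.0% of all genes. Cd36, a scavenger receptor that takes up lipids and serum amyloid A, was lower at night, at 29.2 ± 4.01 CPM, against 43.2 ± 6.86 CPM by day (SD, n = 6 each; log2 difference -0.56 ± 0.12, adjusted p = 0.020). Fpr2, a formyl peptide receptor that binds serum amyloid A, had an adjusted p of 0.049 at a level of 0.901 CPM.

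Markers of other cells were set beside the ZT22 values, since the called members were highest there. Lymphocyte markers summed to 4.08 and 4.81 CPM at ZT22, above the 1.02 to 3.85 CPM of the other libraries. Adipocyte markers (5 of 6 in the table) stood at 1.73 CPM in ZT22 replicate 1 and 0.0260 CPM in replicate 2, against 0.0230 to 0.281 CPM elsewhere, each of them at 0 in some libraries. Macrophage markers (7 of 8 in the table) summed to 309 and 369 CPM at ZT22, against 230 to 424 CPM elsewhere, and endothelial markers to 333 and 344 CPM, against 313 to 434 CPM. Stellate cell markers summed to 283 and 214 CPM at ZT22 (204 to 274 CPM elsewhere) and cholangiocyte markers to 64.6 and 35.4 CPM (38.4 to 69.9 CPM elsewhere). Within these lists, ZT22 replicate 1 stood apart in Acta2 (20.4 CPM, at most 3.28 CPM in any other library), Krt19 (11.8 CPM, at most 2.49 CPM), Des (8.30 CPM, at most 5.17 CPM) and Epcam (4.79 CPM, at most 2.45 CPM). These encode smooth muscle actin, an epithelial keratin, desmin and an epithelial adhesion molecule. Erythroid markers summed to 273 and 196 CPM at ZT22 (117 to 377 CPM elsewhere) and pancreatic acinar markers to 16.1 and 18.3 CPM (6.35 to 33.8 CPM elsewhere). Saa1, Saa2, Orm2, Lcn2 and Apcs were higher in ZT22 replicate 2 than in ZT22 replicate 1. Of the sums given here, those of macrophage, endothelial, lymphocyte and acinar markers were also the higher of the ZT22 pair in replicate 2, and those of adipocyte, stellate, cholangiocyte and erythroid markers the lower. Marco, a scavenger receptor of macrophages, stood at 9.61 and 22.9 CPM in ZT22 replicates 1 and 2, against 5.50 to 23.0 CPM elsewhere. Of the other macrophage markers, Clec4f (107 and 115 CPM), Vsig4 (31.3 and 32.3 CPM), Timd4, Cd5l and Csf1r were higher in replicate 2. Cd68 (8.12 and 7.30 CPM) was lower there. Acta2, Krt19, Des, Epcam and Marco were named after their values were seen. The part of any of these cell types in the members' values was not tested.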

How the data were processed

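Liver total RNA of 12 libraries, 2 at each of 6 times, was read in 100-cycle pairs after rRNA depletion with a stranded kit, per the labels' protocols. What the authors deposited is 1 table of raw exon counts, not normalized. Per the submitters' processing notes, STAR 2.4.0i and mm10 were used. Which tool counted, with which annotation and whether by strand, is not given in the sources used here. Time and replicate number came from each library's label.

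The analysis used edgeR 4.0.16 in R 4.3.3. TMM factors were used, and filterByExpr by time point (minimum count 10, minimum total 15) left 17142 of 22618 genes. The quasi-likelihood test was applied to 24 h cosine and sine terms and, in a fit of 6 groups, to any time difference, night minus day and ZT22 minus ZT10. All 12 libraries shared 1 estimate of the spread. The SE of a difference is its log2 value divided by the root of F. Ratios of peak to trough and peak times come from least squares on log2 CPM (prior count 2), with 95% intervals. Gene positions and transcripts are from GENCODE M21 on GRCm38, with 564 identifiers unmatched. Correlations used 100000 permutations in SciPy 1.17.1. The alternatives, 23 in all, included DESeq2 1.42.0 and limma-voom (limma 3.58.1), other factors, no filter, a replicate block and libraries left out. The tests were checked on simulated data.

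The members, lists and contrasts were chosen with earlier results of these data known. Apart from the members, up to 4 genes of each list were named, those with the smallest adjusted p among genes called in the 24 h test, and the 8 and 5 genes most like Saa1 and Hp. Others are said to be named after their values were seen. Of 98 list entries, Saa5 is not in the table.

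The counts of the 2 libraries of each time differed by more than counting error, at a chi-square of 16.8 to 100 per degree of freedom. This cannot tell whether they stem from different animals.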

Additional observations from a re-analysis of the deposited data

Results flagged for a closer look

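For each member, the 6 night and the 6 day libraries were searched for a highest or lowest value whose gap to the next exceeded 0.625 of the group's range. Each group pools several times of day, so no chance rate can be set beside this limit. Of 20 groups, 5 held such a value. At night these were all in ZT22 replicate 2, in which Orm2 stood at 71.6 CPM (next 25.4 CPM), Lcn2 at 37.4 CPM (next 10.4 CPM) and Apcs at 110 CPM (next 49.98 CPM). In each case the next value was that of the other ZT22 library. By day, Saa3 stood at 7.30 CPM in ZT10 replicate 1 (next 2.87 CPM), and Lcn2 at 11.8 CPM in ZT06 replicate 2 (next 4.66 CPM). ZT06 replicate 2 also had the highest day sums of neutrophil markers, 2.73 CPM, of adipocyte markers, 0.281 CPM, and of cholangiocyte markers, 69.9 CPM. The part of these cells in the Lcn2 value was not tested.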

How the results depend on the processing

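For 24 h, limma-voom called 3 members (Saa1, Saa4 and Orm1; 12.0% of all genes) in place of 6 (12.0%). When ZT02 replicate 1 and ZT06 replicate 2 were both left out, 3 were called (3.59%). These were Saa1, Saa4 and Lcn2, which was not among the 6, so Saa2, Orm1, Orm2 and Apcs were lost. Without both ZT22 libraries 2 were called (Saa4 and Apcs; 6.25%). Fits without 1 library called 4 to 7 members (7.17% to 13.1% of all genes). For any time, limma-voom called 4 of 10 (4.16% of all genes) in place of 7 (4.82%), and fits without 1 library 2 to 9 (1.04% to 5.41% of all genes; 2 without either library of ZT14 or ZT18, 3 without ZT22 replicate 2). For night minus day, 1 was called without both ZT22 libraries in place of 4 (Apcs, as lower; 8.02% of all genes in place of 9.70%), and 2 to 4 without 1 library (3.77% to 10.9%; 2, Saa1 and Saa4, without ZT14 replicate 1, either library of ZT18, or replicate 2 of ZT02, ZT06, ZT10 or ZT22). For ZT22 minus ZT10, DESeq2 called 7 (4.18% of all genes) in place of 3 (0.233%), and fits without 1 library 0 to 4 (0.0175% to 0.420%; 0 without ZT10 replicate 2 or either library of ZT18, 1 without ZT22 replicate 2). The share of all genes called also moved in most of these fits, though little with limma-voom, and the cause was not tested. RLE factors, total counts and no filter moved none of these 4 counts by over 1.5 times.

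Replicate numbers did not pair the libraries: over 15 pairs of times, deviations of same-numbered libraries correlated at -0.18 to 0.27 (median -0.01), 2 of them over 0.1. With the replicate block 6 members were called for 24 h (11.1% of all genes) and 5 for any time (4.52%). Those lost for any time were Lcn2 (0.053) and Orm2 (0.055). For night minus day 4 members were called (9.39% of all genes), and for ZT22 minus ZT10 3 (0.239%).

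Signs turned only for log2 differences that were not called in the reported fits. For night minus day, Saa3 was 0.036 with limma-voom, 0.077 without ZT02 replicate 1 and ZT06 replicate 2, and -0.32 to 0.39 without 1 library. Crp was 0.012 with total counts, 0.017 without ZT02 replicate 2 and ZT06 replicate 1, and -0.12 to 0.10 without 1 library. Without both ZT22 libraries Orm2 was -0.019, Lcn2 -0.49 and Apcs -0.46, and Apcs was -0.13 to 0.25 without 1 library, lowest without ZT22 replicate 2. For ZT22 minus ZT10, Saa3 was -1.06 to 1.07 without 1 library, highest without ZT10 replicate 1, and Crp was 0.0085 with limma-voom and -0.31 to 0.34 without 1 library. With 2 libraries at each time and wide intervals, the size of the rises of Saa1, Saa2, Orm2 and Lcn2 is poorly fixed.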
